A study of Mus musculus with 3 samples.

Results

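The 4 Hox clusters of the mouse were examined in RNA sequencing of the adult dentate gyrus, the part of the hippocampus where granule neurons predominate. Members were the table rows named Hoxa, Hoxb, Hoxc or Hoxd followed by digits, 39 of 24458 rows: 11 in Hoxa, 10 in Hoxb, 9 in Hoxc and 9 in Hoxd. Rows were chosen by name, not by value. The 3 libraries form 1 group, labelled E24, of C57BL/6 mice aged 8 weeks, and each library came from 1 animal. The study concerns neuronal activation, but the labels state no treatment, time or genotype for this group beyond the code E24, and the table carries the unexplained abbreviations WT and ECT. With no second group, no comparison between conditions was made. A cluster was described as a block: its interior runs from the first to the last Hox row in the order of the table, and its flanks are the 5 rows beyond either edge. The 4 interiors hold 56 rows, of which 17 have other names.

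Hox genes encode homeodomain transcription factors that give cells their position along the body axis. Within a cluster the genes lie in the order in which they are used: those of the low-numbered paralog groups act in the hindbrain and neck, and those of the high-numbered groups in the lower trunk, tail and limbs. Their neural expression is known from the hindbrain and spinal cord, whereas the hippocampus arises from the forebrain, in front of the Hox domain. Polycomb complexes keep silent Hox clusters under one domain of repressive chromatin, and trithorax proteins oppose them. Several microRNAs and long noncoding RNAs are encoded between the Hox genes.

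Of the 56 interior rows, 6 are named for microRNAs, and their mature sequences show which families the clusters carry. They are from RefSeq (GRCm38.p6), matched by symbol for 6 of 6 rows, with the seed, bases 2 to 8, in capitals. Mir10a lies in Hoxb and Mir10b in Hoxd, and their main products share 1 seed. Mir196b of Hoxa, Mir196a-1 of Hoxb and Mir196a-2 of Hoxc share another, the latter pair giving the same mature sequence. Mir615 lies within the Hoxc5 locus.
miR-10a-5p: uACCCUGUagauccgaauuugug
miR-10b-5p: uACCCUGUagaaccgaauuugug
miR-196a-5p: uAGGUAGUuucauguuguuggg
miR-196b-5p: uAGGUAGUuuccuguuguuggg
miR-615-3p: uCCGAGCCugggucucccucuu

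Of these 6 rows, 5 were at 0 in all 3 libraries, and the Mir196a-1 row held 0, 0 and 0.0135 RPKM in replicates 1, 2 and 3. RPKM scales reads to gene length and to the mapped reads of the library. Of all 1131 microRNA rows of the table, 39.6% were at 0 throughout. These are loci of the hairpins, which are short for this assay, and mature microRNAs were not measured.

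Upstream sequence is shown for 3 of the 4 members of paralog group 4, whose genes act in the hindbrain and neck, because its members lie in different clusters and none of their rows exceeded 0.0165 RPKM in any library. The 250 bases before the annotated start are given 5′ to 3′ from RefSeq (GRCm38.p6, plus strand): Hoxb4 at chr11:96318017-96318266, Hoxc4 at chr15:103034145-103034394, Hoxd4 at chr2:74721728-74721977. The motif CG, which reads the same on both strands, is in capitals.
Hoxb4: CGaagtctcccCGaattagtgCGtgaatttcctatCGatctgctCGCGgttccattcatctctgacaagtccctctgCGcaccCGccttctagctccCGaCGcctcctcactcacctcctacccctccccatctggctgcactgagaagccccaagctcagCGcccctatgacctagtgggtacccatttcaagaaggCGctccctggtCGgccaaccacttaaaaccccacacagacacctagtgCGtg
Hoxc4: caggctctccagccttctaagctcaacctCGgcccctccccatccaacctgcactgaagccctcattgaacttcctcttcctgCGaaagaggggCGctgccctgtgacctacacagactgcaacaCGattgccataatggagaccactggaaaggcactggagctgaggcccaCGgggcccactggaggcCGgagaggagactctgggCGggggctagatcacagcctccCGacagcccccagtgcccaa
Hoxd4: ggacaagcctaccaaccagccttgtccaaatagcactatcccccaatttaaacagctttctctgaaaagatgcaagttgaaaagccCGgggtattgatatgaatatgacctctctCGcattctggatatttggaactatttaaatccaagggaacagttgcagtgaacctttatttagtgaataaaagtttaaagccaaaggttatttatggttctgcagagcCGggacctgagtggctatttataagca

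Hoxa4 is the other member. These stretches hold 14, 8 and 3 CG in Hoxb4, Hoxc4 and Hoxd4. At least as many were found in 29.4%, 43.0% and 71.0% of all 32851 promoter stretches of that length, and 92.1% of all hold the motif. Only 22 of the 39 members, or 56.4%, were matched to a promoter, so a comparison of the whole family with other genes is void and none is given.

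The values of single rows need care in this table. Summed RPKM ranged from 350942 to 384523 per library, depth is unknown, and 29.4% of neighbouring rows broke the genomic order. Across all rows, which are not independent, Pearson's r of log2(RPKM + 1) between libraries was 0.47 to 0.58. Around the Hox clusters, like values stood in neighbouring rows of different libraries, as described with the clusters. Each value is therefore reported for a row by its name, and no gene's own level is stated from it. An exact 0 is given only as listed, since the row of Cbx3, a heterochromatin gene used in most cells, is at 0 in all 3 libraries too, beside Hoxa.

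The labelled tissue was checked against marker rows. Of 10 dentate granule neuron rows, 4 reached 1 RPKM in all 3 libraries and 0 were at 0 throughout, with sums of 95.1, 284 and 227 RPKM. Of 8 rows for neurons of the hindbrain and spinal cord, where Hox genes are normally used, 3 were at that level in all libraries, with sums of 34.2, 43.3 and 31.6 RPKM. Lists for other cells of the hippocampus had larger shares than the granule neuron list, with 6 of 8 CA pyramidal, 5 of 8 GABAergic interneuron and 7 of 8 microglial rows. Astrocyte and oligodendrocyte rows had 2 of 7 each, as had choroid plexus rows, endothelial and mural rows 4 of 8, meningeal rows 2 of 6 and blood rows 1 of 8. By row name, these counts do not single out granule neurons. Over the table, the share of rows at or past 1 RPKM in all 3 libraries was 32.4%. Fewer cells of a type and less RNA per cell cannot be told apart in such bulk samples.

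Most Hox rows were listed at 0 in every animal. Of the 39, 31 (79.5%) were at 0 in all 3 libraries, against 18.8% of all rows. Only 6 reached 1 RPKM in at least 1 library, a level that 67% of all rows reached. A single row, Hoxc8, did so in all 3. The Hoxb3 and Hoxd4 rows were above 0 in 1 library each, at 0.107 and 0.0165 RPKM in replicate 1. The median of the row means was 0 RPKM for the Hox rows and 3.52 RPKM for the table.

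Loci of like length elsewhere were at 0 less often. Hox loci are compact, with a median length of 3216 bp against 13974 bp for all rows. Among loci of 2173 to 8079 bp, the span between the 10th and 90th percentiles of Hox loci, 25 of 31 Hox rows (80.6%) were at 0 throughout. Of 4911 rows of that length outside the clusters, 17.8% were.

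By the paralog group in their names, rows above 0 occurred in every class of the axis. Of 15 rows of groups 1 to 5, 11 were at 0 in every library, as were 7 of 8 rows of groups 6 to 8 and 13 of 16 rows of groups 9 to 13. Rows that reached 1 RPKM in at least 1 library included Hoxd1 among the first, Hoxc8 among the second, and Hoxb13, Hoxd11 and Hoxd12 among the third. By name, each class thus held rows of both kinds, in groups 6 to 8 through Hoxc8 alone. The other rows named here reached 1 RPKM in 1 library each, so no expression along the axis is read from them.

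The plot of values by row shows where the few values above 0 stood. Over the 4 interiors together, the summed value was 641, 61.7 and 38.7 RPKM (247 ± 342, SD, n = 3), against 565, 928 and 921 RPKM in the 40 flanking rows. In replicate 1 the interiors thus held more than their flanks, through the Hoxb13 and Hoxd11 rows, and without replicate 1 the mean interior sum was 50.2 RPKM.

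**Figure D1:**
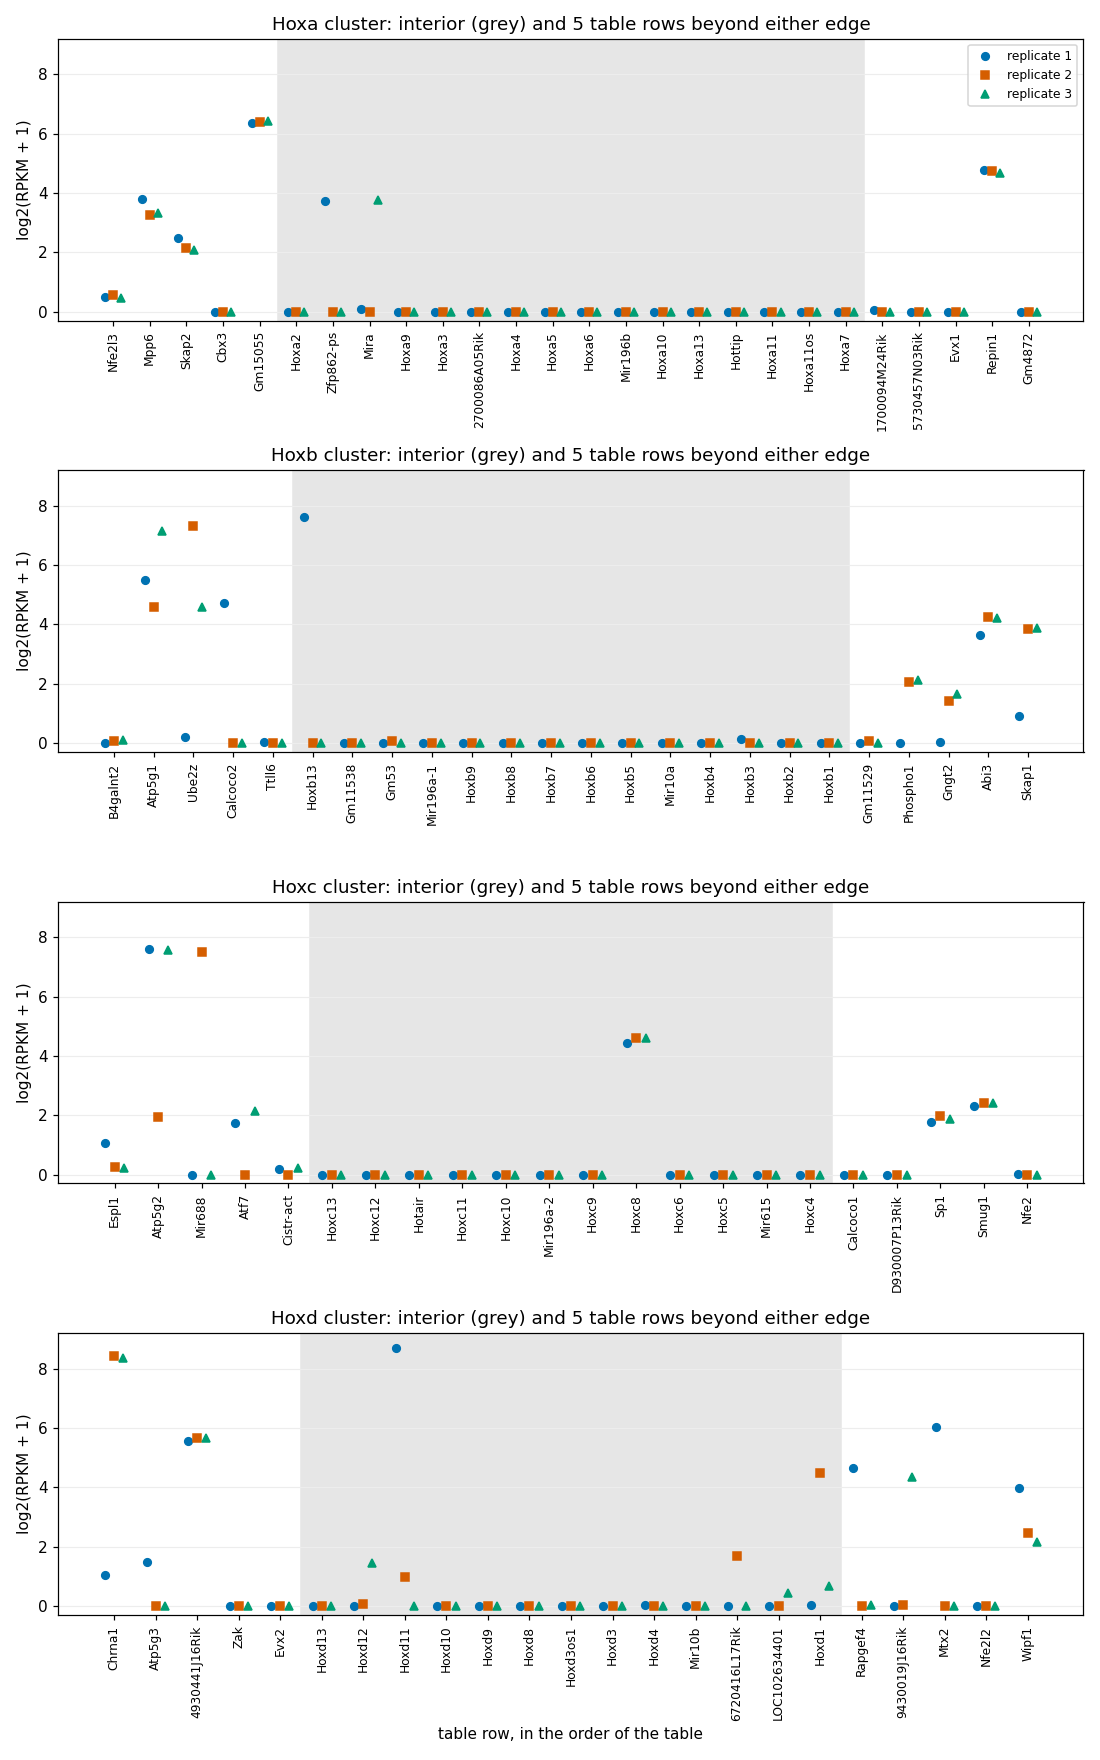
Values of rows of the 4 Hox interiors (grey) and of the 5 table rows beyond either edge, in table order. They are drawn as log2(RPKM + 1) on the vertical axis, with 1 symbol per library. A Hoxa row whose values are not reported here is counted but not drawn. Of the 56 interior rows, 42 lie at 0 in all 3 libraries, and Hoxc8 is the single row at 1 RPKM or more in all of them.

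In Hoxa, on chromosome 6 (mm9), 10 of 11 Hox rows were at 0 in all 3 libraries. They include Hoxa2 and Hoxa3, which pattern the branchial arches, Hoxa9, a regulator of blood progenitors, and Hoxa13, a gene of the limb tip and genital tract. The 13 consecutive rows from Hoxa9 to Hoxa7 were all at 0, among them 9 Hox genes, the noncoding RNA Hottip, which lies at the posterior end of the cluster, and the antisense RNA Hoxa11os. Of 1934 runs of rows at 0 in the table, 47 (2.43%) were as long or longer, and they held 4.64% of all rows.

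Other rows stand among the Hoxa genes. The Zfp862-ps row, whose locus lies outside the cluster, held 12.3, 0 and 0 RPKM in replicates 1, 2 and 3. The Mira row held 0.0613, 0 and 12.6 RPKM. Each was high in 1 library alone, and at a similar value.

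In Hoxb, on chromosome 11 from 96055674 to 96229567 (mm9), 8 of 10 Hox rows were at 0 throughout. They include Hoxb1, which specifies a hindbrain segment, Hoxb4, known from blood stem cells, and Hoxb5 to Hoxb9 of the trunk. The 7 consecutive rows from Hoxb9 to Hoxb4 were at 0, a length reached by 119 of 1934 runs (6.15%), which held 7.19% of all rows. The row of Hoxb13, a gene of the tail end and the prostate that stands apart from its neighbours, held 197, 0 and 0 RPKM. It was high in replicate 1 alone. The interior summed to 197, 0.0526 and 0.0135 RPKM, so without replicate 1 almost nothing was listed in this cluster.

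In Hoxc, on chromosome 15 from 102751561 to 102867283 (mm9), 8 of 9 Hox rows were at 0 throughout, as was the row of the noncoding RNA Hotair. The rows from Hoxc13, a gene of hair and nail, to Hoxc9 formed a run of 7 at 0. A run of 6 followed Hoxc8, from Hoxc6 past Hoxc4 to the first 2 flanking rows. Of 1934 runs, 119 reached the length of the former and 155 that of the latter, holding 7.19% and 8.08% of all rows. The row of Hoxc8, known for motor neurons of the forelimb level, held 20.5, 23.6 and 23.3 RPKM (22.5 ± 1.73, SD, n = 3). It was the whole sum of the interior in every library. The flanking row of the autophagy receptor gene Calcoco1 follows Hoxc4 in the table although its locus, from 102537207 to 102552609 (mm9), lies before Hoxc13, and it was listed at 0 in all 3 libraries. Whether the Hoxc8 value belongs to that gene was not tested.

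In Hoxd, on chromosome 2 from 74506366 to 74603199 (mm9), 5 of 9 Hox rows were at 0 throughout: Hoxd13, a gene of the digits, Hoxd10 and Hoxd9 of the lumbar cord, Hoxd8 and Hoxd3. The row of Hoxd11, which shapes the forearm, held 411, 0.951 and 0 RPKM. That of its neighbour Hoxd12 held 0, 0.0423 and 1.73 RPKM. Both are therefore rows with no steady value. The row of Hoxd1, at the anterior end, held 0.0264, 21.4 and 0.609 RPKM, and of the pair of rows before it LOC102634401 held 0, 0 and 0.357 RPKM and 6720416L17Rik 0, 2.22 and 0 RPKM. In between, the 5 rows from Hoxd10 to Hoxd3 were at 0 in all 3 libraries, and Hoxd4 at 0.0165 RPKM in replicate 1. A run of 5 or more was found 196 times among 1934 runs, holding 8.91% of all rows. The Hoxd interior summed to 411, 24.6 and 2.70 RPKM.

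Nested loci add a limit. The Hoxa3 locus, from 52119060 to 52163066 on chromosome 6, holds those of Hoxa4, Hoxa5 and Hoxa6, and the Hoxd3 locus, from 74550049 to 74586328 on chromosome 2, holds Hoxd4 and Mir10b (mm9). Whether reads were counted by strand is not given in the sources used here. How far reads from such overlapping loci were kept apart was not tested. Of these rows, Hoxd4 alone was above 0.

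Replicate 1 stood apart in 2 of the 4 clusters. Over interior and flanking rows, r of log2(RPKM + 1) in Hoxb was 0.24 and 0.38 for replicate 1 with 2 and 3, and 0.92 for 2 with 3. In Hoxd the values were 0.21, 0.14 and 0.82. Across all rows replicate 1 also had the lower values, 0.47 with 2 and 0.49 with 3, against 0.58 for 2 with 3. In Hoxa all 3 pairs lay between 0.81 and 0.82 with the flanks, but over interior rows alone the mean r was -0.055, and in Hoxb -0.078. In Hoxc replicate 2 was the one apart, with 0.38 and 0.39 against 0.99 for replicates 1 and 3. These are descriptions over 22 to 27 rows, flanks included except where stated. Marker rows differed between the libraries too, in both directions. Astrocyte rows summed to 18.2, 223 and 203 RPKM and GABAergic interneuron rows to 111, 381 and 286 RPKM. Both sums were lowest in replicate 1, as was that of the granule neuron rows. Single rows did not all follow their sum. The astrocyte row Gfap held 1.11, 199 and 186 RPKM, but Aldh1l1 held 9.63, 0.959 and 0.601 RPKM. Tdo2 of the granule neuron list held 25.7, 0.473 and 0 RPKM, and the interneuron row Gad1 70.9, 99.7 and 0.113 RPKM. These 4 rows were picked after their values were seen. Choroid plexus rows were highest in replicate 1, with the 7 rows summing to 212, 6.92 and 22.2 RPKM. Of these, 2 reached 1 RPKM in all 3 libraries, 0 were at 0 throughout, and the defining Ttr row held 55.3, 1.15 and 0.396 RPKM, while Otx2 held 0.648, 0.0729 and 0.834 RPKM. The part of these differences in the Hoxb13 and Hoxd11 values was not tested.

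Some like values were found in other rows nearby. The interiors held 11 values of 1 RPKM or more over the 3 libraries. For each, the nearest value in either other library was sought within 10 rows. In 10 of 22 searches it lay within a natural-log difference of 0.1, 2 times at the same row and 8 times at another. The 2 at the same row are Hoxc8 in replicates 2 and 3, the same pair counted from either side. Some pairs in different rows were counted from either side too. The search was not run over the rest of the table, so the count has no background and is a description only. The Hoxd1 value of 21.4 RPKM in replicate 2 stood beside 24.1 RPKM at the Rapgef4 row in replicate 1, 1 row away, and 19.2 RPKM at the 9430019J16Rik row in replicate 3, 2 rows away, both outside that tolerance.

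The highest value of each window, interior and flanks together, was similar between libraries, while in 3 of the 4 windows its row changed. In Hoxd it was 411 RPKM at the Hoxd11 row, and 343 and 326 RPKM at the row of Chrna1, a muscle acetylcholine receptor gene, or 360 ± 45.2 RPKM (SD, n = 3). In Hoxb it was 197 RPKM at Hoxb13, 158 RPKM at the row of the ubiquitin enzyme gene Ube2z and 141 RPKM at Atp5g1 (166 ± 28.8). In Hoxc it was 194 RPKM at Atp5g2, 183 RPKM at the Mir688 row and 188 RPKM at Atp5g2 (188 ± 5.45). Each of these 3 windows also holds the row of a gene for the ATP synthase c subunit: Atp5g3 in Hoxd, Atp5g1 in Hoxb and Atp5g2 in Hoxc. The highest row of each library stood 0 to 6 rows from it. The windows have only 22 to 24 rows, and no background for this distance was computed. The Atp5g1 row itself held 44.3, 22.9 and 141 RPKM, the Atp5g2 row 194, 2.80 and 188 RPKM, and the Atp5g3 row 1.78, 0 and 0 RPKM. In Hoxa the highest row was Gm15055 in each library, at 82.1, 82.2 and 84.7 RPKM. The Hoxb13 and Hoxd11 rows were thus the highest of their windows in replicate 1, where in the other libraries a flanking row was. Which gene these values belong to was not tested, and the 3 ATP synthase rows were singled out after their values were seen.

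**Figure D2:**
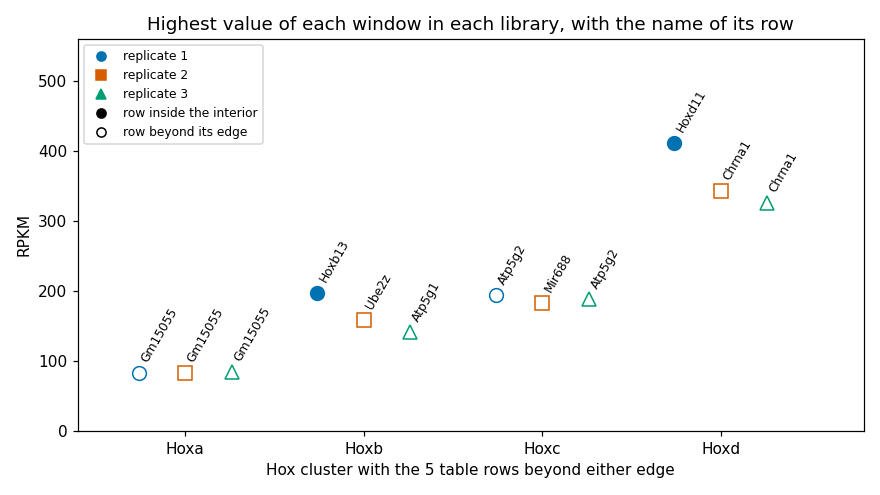
The highest value in RPKM of each cluster's interior and flanks in each of the 3 libraries, labelled with the name of its row. Filled symbols, at Hoxb13 (197 RPKM) and Hoxd11 (411 RPKM) in replicate 1, are interior rows, and the 10 open ones lie beyond the edge.

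For much of the family, nearby rows did not reach 1 RPKM in every library. For 22 of 39 Hox rows (56.4%), against 90.4% of all rows, each library had 1 RPKM or more somewhere within 5 positions. The row that reached it could differ between libraries. By cluster this condition was met for 5 of 11 rows in Hoxa, 3 of 10 in Hoxb, 9 of 9 in Hoxc and 5 of 9 in Hoxd. The 17 rows without it are Hoxa4, Hoxa5, Hoxa6, Hoxa10, Hoxa11 and Hoxa13, Hoxb3 to Hoxb9, and Hoxd3, Hoxd4, Hoxd9 and Hoxd10. For all rows of Hoxc, the value at Hoxc8 or in a flank was within reach.

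As blocks, all 4 interiors lay below the mean of all rows. The mean of log2(RPKM + 1) over interior rows was 0.22 ± 0.0024 in Hoxa, 0.19 ± 0.32 in Hoxb, 0.38 ± 0.01 in Hoxc and 0.47 ± 0.25 in Hoxd (SD, n = 3), against 1.88 for all rows. The mean of all rows was subtracted from this mean in each library, and the 3 differences of a block were together compared with 0 by limma. The fit covered 2381 blocks, the 4 interiors and 2377 runs of 10 rows elsewhere. The offsets were -1.65 in Hoxa (adjusted p = 0.00023, limma), -1.69 in Hoxb (adjusted p = 0.00267, limma), -1.50 in Hoxc (adjusted p = 0.000273, limma) and -1.40 in Hoxd (adjusted p = 0.00245, limma). All 4 had the same sign in 3 of 3 libraries. Of all blocks, 33.4% passed as lower in the same fit, so passing is common and says that an offset repeats between animals. In rank, 7.49% to 11.9% of the 2377 other blocks lay lower than the Hox interiors, which are longer, at 12 to 17 rows.

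Without replicate 1 the offset was -1.87 in Hoxb (adjusted p = 0.00525, limma) and -1.49 in Hoxd (adjusted p = 0.0261, limma). If rows at 0 in every library were left out, Hoxc was represented by the Hoxc8 row alone, and its offset was 2.24.

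**Figure D3:**
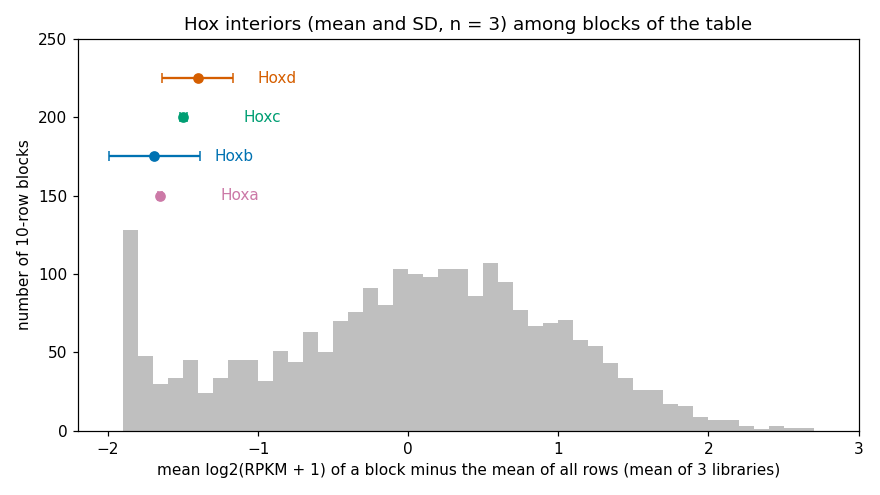
Grey bars count the 2377 blocks of 10 rows by their mean log2(RPKM + 1) minus the mean of all rows, averaged over 3 libraries, and dots with bars give the 4 Hox interiors with the SD (n = 3), at heights chosen for legibility. The Hox interiors lie between -1.69 and -1.40, near the low end.

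Each interior also lay below its own flanks. The flanks averaged 1.44 in Hoxc to 2.08 in Hoxb in log2(RPKM + 1), and 44.2% ± 1.44 of the 40 flanking rows were at 1 RPKM or more, against 6.55% ± 1.03 of the 56 interior rows (SD, n = 3). Of all rows of the table, 49.7% ± 0.437 were. The interior minus the flanks was -1.51 ± 0.06 in Hoxa, -1.89 ± 0.82 in Hoxb, -1.06 ± 0.04 in Hoxc and -1.52 ± 0.38 in Hoxd (SD, n = 3), and was negative in 3 of 3 libraries in each. By limma over 2298 blocks, the adjusted p was 0.0136, 0.0498, 0.0136 and 0.0237. Of all blocks, 14.9% passed as lower than their flanks. Of the other blocks, 4.01%, 1.53%, 10.3% and 3.79% had a lower difference. These calls rest on all 3 libraries: with any 1 left out, 0 of 2298 blocks passed by limma, and the lowest adjusted p of a Hox cluster was 0.0556 without replicate 1. With 3 flanking rows in place of 5, Hoxa alone passed. Over Hox-named rows alone Hoxb did not pass (adjusted p = 0.0656, limma), and with rows at 0 in every library left out Hoxb did not pass (adjusted p = 0.211, limma) and Hoxc, then the Hoxc8 row alone, turned to 2.75.

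**Figure D4:**
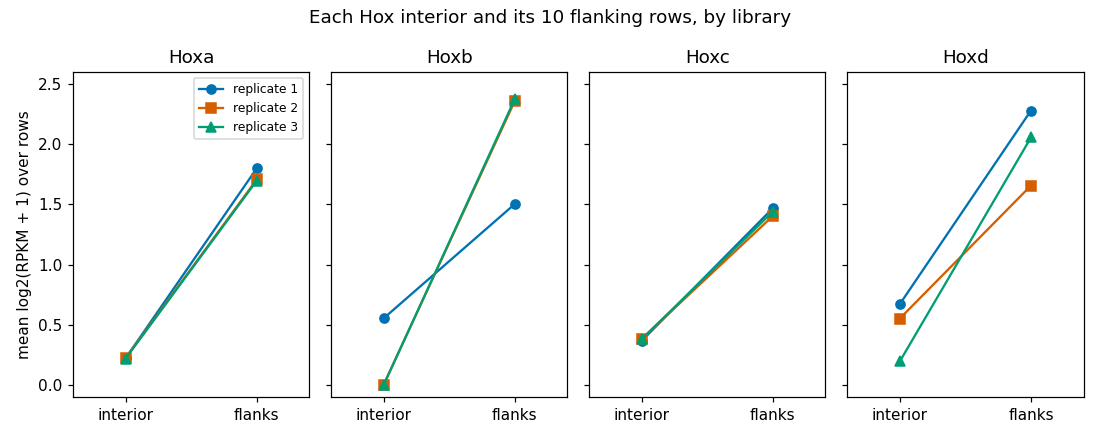
Mean log2(RPKM + 1) over the rows of each Hox interior and over its 10 flanking rows, with 1 line per library. Every line rises from interior to flanks, and in Hoxb replicate 1 starts higher, at 0.56, and ends lower, at 1.50.

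The flanks of the clusters hold rows of varied kinds. Beside Hoxa the rows of Gm15055 and of Repin1, a zinc finger gene, held 82.1, 82.2 and 84.7 RPKM and 26.3, 25.8 and 24.6 RPKM. The adaptor gene row Skap2 held 4.62, 3.41 and 3.19 RPKM, and its paralog Skap1 beside Hoxb 0.867, 13.4 and 13.9 RPKM. The former 3 rows were thus steady between animals, and Skap1 was not. The even-skipped homeobox genes Evx1 and Evx2, which adjoin Hoxa and Hoxd and act in spinal interneurons and limbs, were at 0 in all 3 libraries like most Hox rows. Beside Hoxd the row of Mtx2, a mitochondrial import gene, held 64.5, 0 and 0 RPKM.

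The 4 clusters were set against each other within animals. Of 6 pairs, the largest difference in mean log2(RPKM + 1) was -0.29 ± 0.23 for Hoxb minus Hoxd, and Hoxa minus Hoxc was -0.15 ± 0.01 (SD, n = 3), both negative in 3 of 3 libraries. Exact sign-flip permutation tests, two-sided, gave p = 0.25 for these 2 pairs, the smallest p that 3 animals allow, and adjusted p = 0.75. With a pseudocount of 0.1, Hoxb minus Hoxd was -0.67 and Hoxa minus Hoxd -0.55, against -0.25 with a pseudocount of 1. The design could not pass the threshold, so these p-values do not show that the clusters were alike.

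Against blocks elsewhere in the table, the pooled Hox interiors were low but not the lowest. Of 2377 blocks, 86.3% were higher than the Hox mean and 4.38% lower (limma, adjusted p under 0.05), and all these differences share the same Hox values. The lower calls, 104 in number, fell to 0 with any library left out. The 6 blocks made up of at least 8 protocadherin rows, adhesion genes of neurons, were all higher, by a median of 1.88 in log2(RPKM + 1). Of 85 blocks of odorant receptor rows, genes of the olfactory sensory neurons, 1 was higher and 39 were lower. The other 45 passed in neither direction.

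Rows of genes that work with or on Hox genes were at 0 throughout less often than the Hox rows. Over the table, 18.8% of rows were at 0 throughout. The gene lists, like the members, were drawn up with earlier results of these data known. Cofactor genes of the Pbx, Meis and Pknox families, whose proteins bind DNA together with Hox proteins, had 6 of 9 rows at 1 RPKM or more in all 3 libraries, beside 32.4% of the table, and a median row mean of 12.9 RPKM. The Meis3 row held 151, 216 and 4.18 RPKM, the Meis1 row 64.3, 60.6 and 0.0407 RPKM, and the Pbx3 row 6.83, 65.7 and 27.5 RPKM. None of these rows was steady between animals.

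Polycomb rows, for the complexes that silence Hox clusters, had 12 of 24 members at that level in all libraries, beside 32.4% of all rows. Their median was 5.69 RPKM, and 2 were at 0 throughout, Phf1 and Suz12. Their highest rows were Cbx6, a chromobox reader, at 0, 129 and 40.9 RPKM, the methyltransferase row Ezh1 at 40.2, 15.6 and 14.8 RPKM, and the ubiquitin ligase row Ring1 at 13.8, 28.2 and 14.4 RPKM. Rows of the opposing trithorax proteins and of histone demethylases had 6 of 12 members at that level, beside the same 32.4%. Their median was 14.5 RPKM, and 0 were at 0. The 3 rows below 1 RPKM in every library were Kmt2a, Kmt2b and Kdm6a, named after their values were seen. Wdr5, a core subunit of the methyltransferase complexes, held 266, 390 and 361 RPKM, Psip1 77.5, 95.1 and 7.00 RPKM, and Kmt2c, a methyltransferase, 84.3, 72.3 and 16.5 RPKM. The row named Wdr5 was high in all 3 libraries.

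Retinoic acid induces anterior Hox genes in the embryo. Rows of its pathway had 1 of 15 members at that level in all libraries, beside 32.4% of all rows. Their median was 3.43 RPKM, and the receptor row Rara was at 0 throughout. The synthesis enzyme rows Aldh1a2 and Aldh1a3 held 17.2, 98.9 and 0.0802 RPKM and 53.8, 0.137 and 0.243 RPKM, and the binding protein row Crabp1 37.1, 34.9 and 0.0914 RPKM. All 3 fell below 1 RPKM in replicate 3, so none had a steady value.

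Among other homeobox genes, rows of the ParaHox genes (the Gsx, Pdx and Cdx families, sisters of the Hox genes) and of Evx1 and Evx2 had 0 of 8 at 1 RPKM or more in all 3 libraries. Of these 8 rows, 4 were at 0 throughout, beside 18.8% of all rows, and their median was 0.0141 RPKM. Their highest rows were Cdx4 at 0, 33.4 and 35.4 RPKM, Gsx1 at 0.121, 0 and 38.0 RPKM, and Gsx2 at 0.200, 0.0407 and 0.0664 RPKM. Of 18 rows for homeobox genes of the forebrain outside the clusters, 7 were at that level in all libraries, beside 32.4% of all rows. Of the 18, 0 were at 0 throughout, and the median was 13.2 RPKM. The 3 rows below 1 RPKM in every library were Otx2, Pax6 and Zeb2, named after their values were seen. The row of Lhx2, which specifies the hippocampal primordium, held 36.8, 34.7 and 32.4 RPKM and was steady. Those of the genome organiser Satb1, at 104, 0 and 82.6 RPKM, and of Dlx6, a gene of inhibitory neurons, at 46.2, 43.2 and 3.96 RPKM, were not. The difference between the lists was not tested.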

How the data were processed

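RPKM values were deposited by the authors in 1 table of the whole series, made with TopHat2 and Cufflinks on mm9, per the submitters' processing notes; versions, annotation, filters and the use of strand are not stated there. RNA came from the microdissected dentate gyrus with 1 library per animal, per the labels' protocols. Columns were matched to the 3 samples by title, and 9 value columns that match no listed sample were not used. The values of 1 Hoxa row are not reported here, though block means and counts include it. Depth is unknown, so no counting interval or floor is given, and no count test was run.

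Members and gene lists were chosen with earlier results of these data known. Every Hox row, every other interior row, the flanks and the 3 highest rows of each list were eligible for naming. The mean of log2(RPKM + 1) (pseudocount 1, no filter) was taken over each Hox interior and over consecutive blocks of 10 rows on 1 chromosome. Its difference from all rows, from its flanks or from the pooled Hox interiors was taken within each library. For each block, the differences of the libraries were tested together with limma (version 3.58.1, R 4.3.3). It was a two-sided test of the intercept, with Benjamini-Hochberg over all blocks and a threshold of 0.05. For the difference from all rows, data were simulated for 2381 blocks at their own spread, with an offset given to 200 of them. Recovered were 72% of offsets of 1 and 91% of offsets of 2, with 8 false calls. With the median spread for every block, 100% of either were recovered, with 5 false calls. In the data 33.4% of blocks passed as lower, a larger share than was changed here, so these rates need not carry over. Alternatives changed the pseudocount, filter, block size, flanks, interior, scaling and libraries. A wider search for like values (natural-log difference 0.25) matched 21 of 22, also without a background from the rest of the table. Sequences are from RefSeq tables (GRCm38.p6), matched by symbol, and no coordinates were converted.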

Additional observations from a re-analysis of the deposited data

How the results depend on the processing

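Leaving out 5 rows at either end was chosen after seeing the data and leaves only rows at 0, so its offsets test nothing. The 4 offsets from all rows kept their sign and passed by limma throughout, except when rows at 0 in every library were left out, where Hoxb was at -1.66 (adjusted p = 0.0631) and Hoxc, then 1 row, at 2.24. Against flanks, with a library left out, Hoxa was at -1.53 to -1.48, Hoxb at -2.36 to -1.65, Hoxc at -1.08 to -1.04 and Hoxd at -1.73 to -1.36, with limma adjusted p of 0.0556 to 0.184. With 2 animals 0 of 2298 blocks passed, so fewer samples end these calls. With 3 flanking rows Hoxb was at -1.16, Hoxc at -0.59 and Hoxd at -1.30, not passing (limma adjusted p of 0.136, 0.211 and 0.122). Hoxb minus flanks was -1.82 over Hox-named rows (adjusted p = 0.0656, limma), and without rows at 0 it was -1.42 (adjusted p = 0.211, limma) and Hoxc 2.75. Blocks higher than Hox numbered 1060 with 20-row blocks, where 1169 were tested, and 1335 without rows at 0. Lower ones numbered 36 and 68 in these, and 0 with 2 or 5 rows left out at either end, with Hox-named rows only, and without any 1 library.

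Hoxa minus Hoxb, 0.04, was -0.055 to 0.22 with a library left out and -0.14 over Hox-named rows, and Hoxc minus Hoxd, -0.10, was -0.24 to 0.0086 with a library left out. Hoxa minus Hoxc was -0.23 with a pseudocount of 0.1 and -0.39 over Hox-named rows, and with that pseudocount Hoxa minus Hoxd was -0.55 and Hoxb minus Hoxd -0.67. Interior rows past 0.5 and 5 RPKM made up 7.74% and 5.36%. Mean r between libraries was 0.79 in Hoxa with a pseudocount of 0.1, and over interiors alone -0.055 in Hoxa, -0.078 in Hoxb and 1 in Hoxc, where a single row is above 0. At 5 RPKM, rows in all libraries numbered 2 for cofactors, 2 for forebrain homeobox and 0 for retinoic acid genes. Taking the highest value within 5 rows gave 24 Polycomb, 12 trithorax, 14 retinoic acid, 8 ParaHox and Evx and 18 forebrain rows, where 90.4% of all rows pass. With a library left out, retinoic acid rows numbered 2 to 4, ParaHox and Evx rows 0 to 1 and forebrain rows 8 to 11. Where the alternative's own construction does not show it, the cause was not tested. No paired analysis was possible because only 1 group was given. No statement on depth is made, since it is unknown.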
